A study of Mus musculus with 50 samples.

Results

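SUZ12 ChIP-seq in mouse embryonic stem cells (ESCs) listed 5404 peaks in the wild-type line (WT) and 317 in the line that lacks both EZH1 and EZH2 (*Ezh1/2* double knockout, dKO). The regions described here are the 265 WT SUZ12 peaks (4.90%) that shared at least 1 bp with a SUZ12 peak of dKO ESCs, and they are called kept regions. They were selected on these 2 lists, so every WT and dKO SUZ12 value below is a description of the selection and carries no test. The other 5139 WT SUZ12 peaks served for comparison, all together and as the 860 of them in the top quintile of WT peaks by −log10 p (minus the decimal logarithm of the peak caller's p-value), because most kept regions were of that quintile.

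SUZ12 is a core subunit of Polycomb repressive complex 2 (PRC2), which methylates lysine 27 of histone H3 (H3K27me1, H3K27me2 and H3K27me3) through the alternative catalytic subunits EZH1 and EZH2. H3K27me3 covers the CpG islands of silent developmental genes in ESCs, and acetylation of the same lysine (H3K27ac), which marks active promoters and enhancers, excludes methylation. PRC2 finds CpG-rich DNA through accessory subunits and binds its own product through EED, so its position at a site can depend on the catalytic subunits and on the mark.

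All lines derive from E14 ESCs grown in 2i/LIF medium, and each mutant line is a CRISPR-edited clone. The *Ezh2* KO line lacks the *Ezh2* gene product, and the dKO line lacks *Ezh1* as well. The *Ezh2* Y726D (Y726D) and *Ezh2* R685C (R685C) lines carry a point mutation of the endogenous *Ezh2* gene. Both also lack *Ezh1*, which the labels of the Y726D samples for SUZ12 and H3K27me3 leave out and those of the other Y726D and R685C samples used here give. A further pair of dKO samples was immunoprecipitated for the HA tag, with and without an HA-tagged EZH1 introduced into the cells. Each line and target had 1 peak list here, with SUZ12 and H3K27me3 in all 5 lines, H3K27ac in the 4 mutant lines, and H3K27me1, H3K27me2 and ATAC-seq (open chromatin) in WT, *Ezh2* KO, dKO and Y726D ESCs. RNA-seq had 2 libraries for each of these 4 lines. The deletions were checked on the RNA. *Ezh2* held 598 and 546 normalized counts in the WT libraries, 1.05 and 0.968 in *Ezh2* KO, 0.824 and 1.78 in dKO, and 422 and 613 in Y726D. *Ezh1* held 227 and 377 in WT, 372 and 378 in *Ezh2* KO, 14 and 20.4 in dKO, and 24.1 and 15.7 in Y726D, while *Suz12* lay between 513 and 701 in the 8 libraries. The number of reads behind each peak list is unknown, and list lengths and −log10 p depend on it. Values of different lists are therefore printed side by side as descriptions only. No difference in binding or in a mark between lines is read from their −log10 p or fold enrichment. With 1 library per list, shares have Wilson 95% confidence intervals (CI) for counting error only, and no difference between lines or between sets of peaks was tested.

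The summit sequences of the kept regions with the strongest SUZ12 peaks in dKO ESCs are shown first, because they show the dense CpG that most of these sites share. Each is 200 bp of the plus strand of mm9 around the dKO summit, with every CG dinucleotide in capitals. Regions carry the name of the nearest protein-coding start site, also where that start site is far away.
Rpp21 region, chr17:36368287-36368486: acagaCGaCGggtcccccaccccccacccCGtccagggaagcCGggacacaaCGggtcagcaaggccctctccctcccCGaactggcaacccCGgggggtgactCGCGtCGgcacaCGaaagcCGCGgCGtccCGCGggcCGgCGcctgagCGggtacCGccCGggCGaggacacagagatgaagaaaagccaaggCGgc
Uncx region, chr5:140022822-140023021: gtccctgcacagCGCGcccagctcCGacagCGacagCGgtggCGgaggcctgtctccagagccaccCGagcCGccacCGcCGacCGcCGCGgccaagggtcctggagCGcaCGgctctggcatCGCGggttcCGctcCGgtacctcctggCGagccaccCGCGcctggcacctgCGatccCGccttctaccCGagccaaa
Mid1 region 1, chrX:166416394-166416593: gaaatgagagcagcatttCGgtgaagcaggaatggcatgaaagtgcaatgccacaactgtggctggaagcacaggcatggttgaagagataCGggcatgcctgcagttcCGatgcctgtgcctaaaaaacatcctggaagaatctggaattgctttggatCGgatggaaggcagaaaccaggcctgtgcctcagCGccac
Tbx1 region 1, chr16:18582141-18582340: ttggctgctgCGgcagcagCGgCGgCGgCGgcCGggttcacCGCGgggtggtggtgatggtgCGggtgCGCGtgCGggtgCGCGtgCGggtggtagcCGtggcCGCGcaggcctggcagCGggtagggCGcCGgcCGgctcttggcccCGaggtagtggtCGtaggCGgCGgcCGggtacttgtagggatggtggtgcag
The Rpp21 window holds 23 CG dinucleotides and no annotated gene, and it lies 24645 bp from the nearest protein-coding start site among several pseudogenes. The Uncx window (25 CG) and the Tbx1 window (27 CG) lie wholly in coding sequence of *Uncx*, a homeobox factor of somites and neurons, and *Tbx1*, a T-box factor of the pharyngeal apparatus. The Mid1 window holds 5 CG and lies in an intron of *Mid1*, a ubiquitin ligase gene, and within an overlapping lincRNA gene. For comparison, the WT summits of the strongest WT peaks that had no dKO peak were also CpG-rich.
Six2 region, not kept, chr17:86086650-86086849: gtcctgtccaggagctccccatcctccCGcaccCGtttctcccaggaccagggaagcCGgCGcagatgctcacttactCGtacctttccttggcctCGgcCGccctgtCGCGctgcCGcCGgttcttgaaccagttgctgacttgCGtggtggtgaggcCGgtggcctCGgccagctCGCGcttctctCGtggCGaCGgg
Emx1 region, not kept, chr6:85137974-85138173: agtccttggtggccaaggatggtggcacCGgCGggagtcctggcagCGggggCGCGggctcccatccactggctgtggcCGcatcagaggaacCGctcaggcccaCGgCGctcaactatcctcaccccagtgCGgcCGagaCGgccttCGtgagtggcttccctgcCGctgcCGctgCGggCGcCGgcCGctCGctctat
The Six2 window holds 19 CG and the Emx1 window 20, so a high CpG count was not particular to kept regions.

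The dKO SUZ12 peaks were narrow peaks inside strong and wide WT peaks. The −log10 p of the kept regions in WT had a median of 94.9 (range 11.5 to 200.6), against 21.9 for the other WT peaks and 72.7 for the others of the top quintile. In dKO ESCs, the strongest SUZ12 peak of each kept region had a −log10 p between 10.1 and 31.3 with a median of 12.2, close to the listing threshold of 10. The median fold enrichment was 23.0 in WT and 5.83 in dKO. By quintiles of the WT list from weakest to strongest, 1 of 1080, 7 of 1081, 13 of 1081, 23 of 1081 and 221 of 1081 peaks were kept, or 20.4% of the top quintile. Even there, 860 of the 1081 peaks had no dKO peak.

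**Figure D1:**
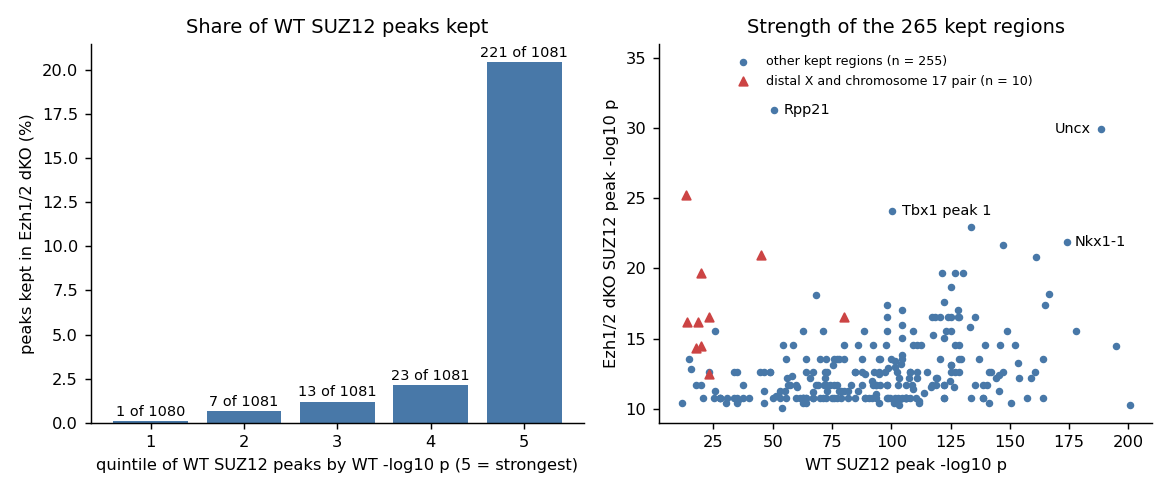
Left, the share of WT SUZ12 peaks kept in dKO ESCs (%) by quintile of WT −log10 p, with the number kept above each bar. Right, each point is 1 of the 265 kept regions by its −log10 p in WT (x axis) and in dKO ESCs (y axis), with 8 regions of distal X (WT values of 13.3 to 79.9) and a pair on chromosome 17 as red triangles. All points lie between 10.1 and 31.3 on the y axis.

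Across the 265 kept regions, the dKO strength followed the WT strength only loosely (Spearman 0.25, Pearson 0.20), as a description over regions that share 2 libraries. Only regions with a dKO value past the listing threshold enter, and most values lie close to it, which limits this correlation. It does not describe WT peaks in general, of which the share kept rose with WT strength. The strongest in dKO ESCs were Rpp21 (−log10 p 31.3), Uncx (29.9), Mid1 region 1 (25.2), Tbx1 region 1 (24.1), Tnxb (23.0), Nkx1-1 (21.9), Neurod2 (21.7), Pgk2 region 1 (20.9), Sim2 region 1 (20.8) and then Pcdh17, Nfatc1, Foxd2 and Mid1 region 2 (19.7 each). Most of these names are developmental regulators. *Neurod2* and *Sim2* encode basic helix-loop-helix factors of neurons and the midline, *Foxd2* a forkhead factor, *Nkx1-1* a homeobox factor and *Nfatc1* a factor of T cells and heart valves. The strongest in WT were Gm1337 (200.6), Sema5b (194.9), Uncx (188.2), Alx4 (177.7) and Nkx1-1 (174.2), and Gm1337 had a value of only 10.3 in dKO ESCs. The weakest in WT were Speg region 1 (11.5), Mid1 region 1 (13.3), Gm17379 region 4 (14.01), Cplx2 (14.6) and Filip1l (15.3). The strongest WT peaks without a dKO peak were Six2 (163.9), Emx1 (158.7) and Zic1 (156.0), so single strong WT peaks lay on both sides of the rule.

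In WT, the median kept region was 2393 bp wide (range 282 to 12988), against 825 bp for the other peaks and 1947 bp for the others of the top quintile. Together they spanned 750087 bp, 12.02% of all bases in WT SUZ12 peaks. The widest were Six3 (12988 bp), Lhx5 (10138 bp), Msx1 region 2 (8953 bp), Nkx2-3 (8573 bp) and Prdm12 (8403 bp), all at genes of homeobox or PRDM factors of the nervous system, limb or gut. dKO peaks covered a median of 440 bp or 19.6% of a kept region, and 32 kept regions held 2 or more of them (at most 5). At Lhx5 they covered 2.50% and at Msx1 region 2 only 2.32% of the WT peak. By the rule, the kept regions with the fewest shared bases were Speg region 1 (78 bp), Gm17379 region 3 and Hoxb7 (200 bp). The peaks closest to a dKO peak without touching it were further WT peaks at Lbx1 (a gap of 35 bp), Gpr25 (104 bp) and Kcnk9 (146 bp). Each lay beside a kept region of the same name, which held that dKO peak, so these loci were not without SUZ12 in dKO ESCs.

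Inside most kept regions, the part under the dKO peak was richer in CpG than the rest of the WT peak. In the 257 kept regions with at least 200 bp outside the dKO peak, the part under the dKO peak had a median of 101.0 CpG per kb and 68.8% GC, and the rest of the same WT peak had 51.4 CpG per kb and 58.4% GC. The CpG density was higher under the dKO peak in 244 of the 257 and the GC content in 246. No such contrast between the centre and the rest was computed for the other WT peaks, so it is not read as particular to kept regions. The WT summit lay inside a dKO peak in 167 kept regions (63.0%), and the dKO and WT summits were a median of 191 bp apart. The summits of the lists the rule did not use were as near in Y726D (median 188 bp, 259 regions) and *Ezh2* KO ESCs (196.5 bp, 240 regions) and farther in R685C ESCs (355.5 bp, 254 regions). In the 500 bp around the WT summit, kept regions had a median of 94.0 CpG per kb, the other peaks 72.0 and the others of the top quintile 88.0. The matching GC contents were 67.8%, 63.6% and 66.4%.

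**Figure D2:**
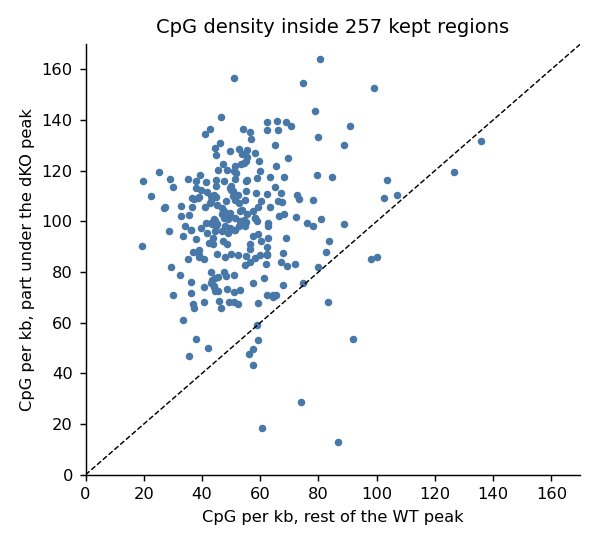
Each point is 1 of 257 kept regions, with the CpG density (CpG per kb) of the rest of the WT SUZ12 peak on the x axis and that of the part under the dKO peak on the y axis. The dashed line marks equal density, and 244 points lie above it.

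Short motifs linked to PRC2 in mammals or flies were counted in the same 500 bp on both strands. CGCG was present in 97.0% of the kept regions, 88.2% of the other peaks and 96.7% of the others of the top quintile, with medians of 5, 3 and 4 matches. GCNGCN was present in 99.2%, 97.9% and 99.8%, and its matches overlap those of CpG-rich repeats (medians of 20, 14 and 18). GAGAGA was present in 24.9%, 32.9% and 28.4%, and CACACA in 18.1%, 26.3% and 19.5%. A match is a description of the letters only.

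Most kept regions lay at promoters and reached into the gene. A protein-coding start site was within 5 kb of 228 kept regions (86.0%, 95% CI 81.3 to 89.7), of 81.7% of the other peaks and of 88.6% of the others of the top quintile. The start site was inside the peak in 64.5%, 39.5% and 63.7%. Among these 228, the dKO summit was a median of 574 bp from the nearest start site and downstream of it in 173 (75.9%). By the GENCODE annotation of mm9, 118 dKO summits lay in coding exons (44.5%), 39 in UTRs (14.7%), 59 in introns (22.3%), 47 between genes (17.7%) and 2 in other exons. The WT summit lay in a coding exon in 47.2% of the kept regions, 23.6% of the other peaks and 36.5% of the others of the top quintile. The kept regions fell into 245 groups at distances of up to 10 kb, of which 231 were single regions. The share of WT peaks kept ranged from 2.48% on chromosome 15 to 8.65% on chromosome 17.

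Most kept regions also carried SUZ12 peaks in the 3 mutant lines that keep an EZH protein. Of the 265 kept regions, 240 had a SUZ12 peak in *Ezh2* KO ESCs (90.6%, 95% CI 86.4 to 93.5), 259 in Y726D (97.7%, 95.1 to 99.0) and 254 in R685C (95.8%, 92.7 to 97.7). The shares of the other WT peaks were 20.02%, 42.7% and 50.1%, and those of the others of the top quintile were 79.0%, 87.4% and 92.9%. All 3 lines had a peak at 230 kept regions (86.8%), at 15.0% of the other peaks and at 69.9% of the others of the top quintile. No kept region lacked a peak in all 3 lines, while 36.5% of the other peaks and 1.98% of the others of the top quintile did. SUZ12 peaks covered 65.2% of the bases of the kept regions in *Ezh2* KO, 56.5% in Y726D and 92.6% in R685C ESCs, against 19.7% in dKO. In the same 3 lines without dKO, they covered 20.3%, 30.7% and 56.3% of the other WT peaks. The others of the top quintile had 46.0%, 43.3% and 82.8%. Kept regions were also wider, so a shared base was likelier there. At Uncx, the −log10 p, each within its own list, was 188.2 in WT, 64.1 in *Ezh2* KO, 29.9 in dKO, 57.1 in Y726D and 142.6 in R685C. Filip1l, Ltb, Ptpre, Fgfr4, Neurl1a, Neurl1b and Fgfr3 region 1 lacked a peak in both *Ezh2* KO and R685C ESCs. These 7 were named after their values were seen.

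HA-EZH1 peaks were found at nearly all kept regions. Peaks of HA-tagged EZH1 in dKO ESCs were present at 258 kept regions (97.4%, 95% CI 94.6 to 98.7), at 49.4% of the other WT SUZ12 peaks and at 98.3% of the others of the top quintile. The HA list of dKO cells without the tagged protein, the control of this experiment, touched 14 kept regions (5.28%, 3.17 to 8.67), 0.876% of the other peaks and 1.28% of the others of the top quintile. The HA lists hold positions only, so the strength of these peaks is not known.

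H3K27me3 peaks were found at nearly all kept regions in WT, *Ezh2* KO and R685C ESCs and at few in dKO and Y726D ESCs. The mark was found at 257 kept regions in WT (97.0%, 95% CI 94.2 to 98.5), at 263 in *Ezh2* KO (99.2%, 97.3 to 99.8) and at 264 in R685C ESCs (99.6%, 97.9 to 99.9). The other WT peaks had shares of 78.4%, 79.2% and 88.8%, and the others of the top quintile 98.5%, 98.1% and 99.2%. In *Ezh2* KO ESCs, where EZH1 is the only catalytic subunit, H3K27me3 peaks covered 99.5% of the bases of the kept regions, and the strongest peak at each had a median −log10 p of 394, against 110 at the other WT peaks and 307 at the others of the top quintile. In dKO ESCs, 12 kept regions touched an H3K27me3 peak (4.53%, 2.61 to 7.75), against 0.331% of the other peaks and 1.28% of the others of the top quintile. In Y726D ESCs 10 did (3.77%, 2.06 to 6.81), against 0.117% and 0%.

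**Figure D3:**
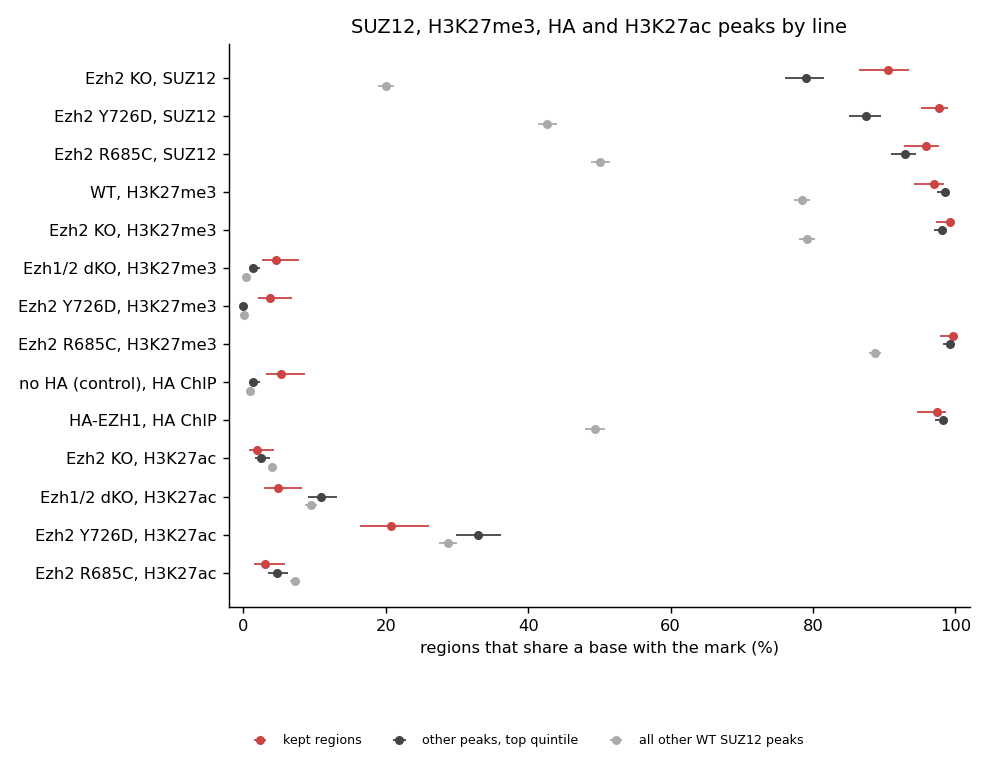
Share of regions (%, x axis) that share a base with a peak of SUZ12, H3K27me3, HA or H3K27ac in each line (y axis), for the 265 kept regions (red), the other WT SUZ12 peaks of the top quintile (black) and all other WT SUZ12 peaks (grey). Points are shares and bars Wilson 95% CIs for counting error, and the SUZ12 rows of *Ezh2* KO, Y726D and R685C show the kept regions highest.

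Most H3K27me3 peaks of dKO and Y726D at kept regions sat at 2 places, which were singled out after their values were seen. Of the kept regions, 8 lay within chrX:166415765-166436032, in or beside *Mid1* (annotated from 166123129 to 166443668) and the short gene *Gm17379*. In the mouse, *Mid1* spans the boundary of the pseudoautosomal region. A further 2 lay within chr17:39980288-39985813, where the annotation has the pseudogene *AY036118* and the nearest protein-coding start site, that of *Pgk2*, is 361922 bp away from the first. These 10 held all 10 H3K27me3 peaks of Y726D, 8 of the 12 of dKO and 8 of the 14 overlaps with the HA control. At Mid1 region 1 the H3K27me3 −log10 p was 65.6 in dKO and 430 in Y726D ESCs, with no peak in WT, and at Pgk2 region 1 it was 17.5 and 30.3, with 12.6 in WT. The 8 X regions had 14 to 90 CpG per kb around the WT summit and a WT SUZ12 −log10 p of 13.3 to 79.9. The other kept regions with a dKO H3K27me3 peak included Rpp21 (20.3), Sox11 (11.97) and Ythdf1 (10.9). Without the 10 regions, H3K27me3 was at 4 of 255 in dKO (1.57%), at 0 of 255 in Y726D (upper 95% bound 1.48%) and at 253 in WT (99.2%), HA control peaks were at 6 (2.35%), and the SUZ12 shares were 91.0% in *Ezh2* KO, 97.6% in Y726D and 95.7% in R685C. Of the 10, 8 carried peaks in the HA control, and the part of such background in the other lists was not tested.

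H3K27me2 covered most bases of the kept regions in *Ezh2* KO ESCs and few in WT. The lists of H3K27me1 and H3K27me2 hold broad regions down to weak p-values and lack some chromosomes in some lines. Only chromosomes present in every list of a mark were used, with 145 kept regions for H3K27me1 and 257 for H3K27me2. H3K27me2 covered 0.792% of the bases of the kept regions in WT, 91.1% in *Ezh2* KO, 11.05% in dKO and 26.1% in Y726D ESCs. The other WT SUZ12 peaks had 2.55%, 95.5%, 9.60% and 22.4%. With regions of a p of at most 0.01, the kept bases covered were 1.07% in dKO and 1.54% in Y726D. The only 2 of the 257 without H3K27me2 in *Ezh2* KO ESCs were Uncx and Barhl2. H3K27me1 covered 1.12%, 3.75%, 16.8% and 48.9% of the kept bases in the same order, against 0.168%, 10.9%, 12.6% and 38.9% at the other peaks and 0%, 4.94%, 12.6% and 41.2% at the others of the top quintile. All 7 kept regions with WT H3K27me1 belonged to the X cluster, and without the 10 regions of X and chromosome 17 the H3K27me1 share of bases was 0% in WT, 2.82% in *Ezh2* KO, 14.8% in dKO and 47.6% in Y726D ESCs. The median −log10 p of the H3K27me1 regions touched in dKO was 1.41 and in Y726D 1.51, and with regions of a p of at most 0.01 the shares of kept bases were 2.92% and 3.10%.

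**Figure D4:**
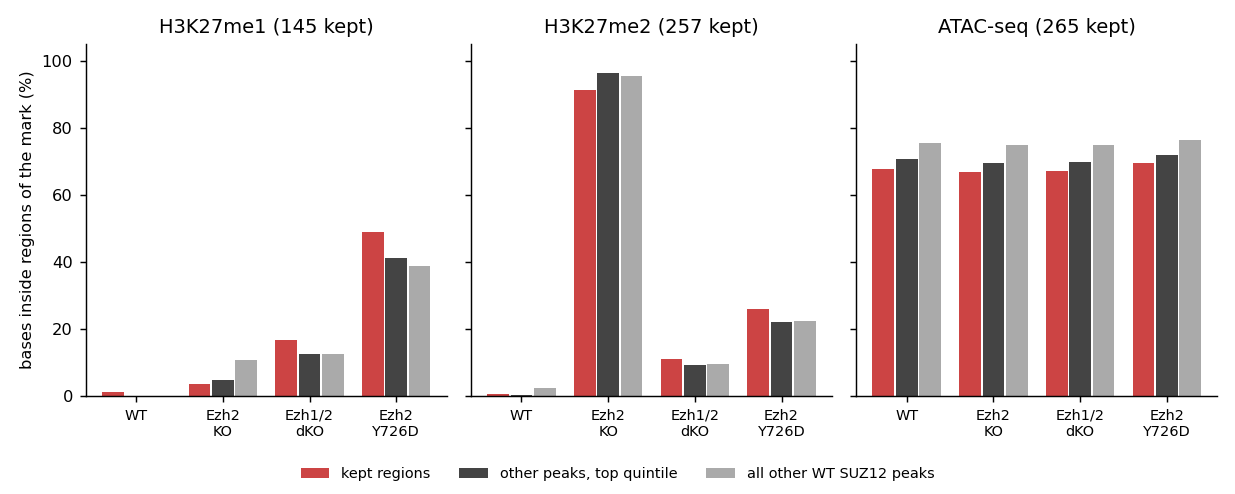
Share of bases (%, y axis) inside broad regions of H3K27me1, H3K27me2 and ATAC-seq by line, for kept regions (red), the other WT SUZ12 peaks of the top quintile (black) and all other WT SUZ12 peaks (grey). H3K27me2 covers 91.1% of the kept bases in *Ezh2* KO ESCs, and ATAC-seq stays between 66.8% and 69.6%.

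Open chromatin was listed at all kept regions, with 1 exception, in every line. ATAC-seq regions touched 265 kept regions in WT and 264 in each of *Ezh2* KO, dKO and Y726D ESCs. They covered 67.6%, 66.8%, 67.2% and 69.6% of the kept bases, against 74.8% to 76.4% of the bases of the other WT SUZ12 peaks and 69.4% to 72.04% of those of the others of the top quintile. The median −log10 p of the regions touched was 1.79 in WT and 1.75 in dKO, and with a p of at most 0.01 the kept bases covered were 13.4%, 15.6%, 9.59% and 13.2%.

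H3K27ac peaks were found at few kept regions except in Y726D ESCs. They were at 5 kept regions in *Ezh2* KO (1.89%, 95% CI 0.809 to 4.34), 13 in dKO (4.91%, 2.89 to 8.21), 55 in Y726D (20.8%, 16.3 to 26.0) and 8 in R685C ESCs (3.02%, 1.54 to 5.84). The other WT peaks had 4.07%, 9.46%, 28.7% and 7.22%, and the others of the top quintile 2.44%, 10.9%, 32.9% and 4.65%. The H3K27ac lists of these lines differed in length, with 25483, 17618, 40829 and 41185 peaks, and no WT list was used as a baseline. A difference between lines was therefore not read from these shares. All 8 R685C overlaps and 4 of the 5 of *Ezh2* KO were in the X cluster, and without the 10 regions the shares were 0.392% in *Ezh2* KO, 4.31% in dKO, 20.4% in Y726D and 0% in R685C. The 13 in dKO ESCs were Glp1r, Sema5b, Gm17379 regions 5 and 6, Gm16499, Prdm16, Cacnb2, Ier5, Hoxa10, Cplx2, Nkx2-5, Hoxb7 and Pitx1, and all but Cacnb2 also had a peak in Y726D. At Sema5b, a gene of axon guidance, the H3K27ac −log10 p was 22.7 in dKO and 65.5 in Y726D. At Hoxa10, which specifies posterior body segments, it was 11.8 and 33.5.

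Developmental transcription factors made up 72 of the genes at the kept regions, and most of the other genes were on no list used here. Kept regions had the start sites of 236 protein-coding genes within 5 kb, 7.35% of the 3212 genes at any WT SUZ12 peak. The 72 were 27.8% of the 259 listed transcription factors at WT SUZ12 peaks. Families were not counted at the others of the top quintile, to which most kept regions belong by strength. The family shares are therefore not read as particular to kept regions. Homeobox factors outside the HOX clusters made up 34 of these (30.9% of 110 bound genes), with *Uncx*, *Irx3* and *Vax1* among the first by dKO strength. Forkhead factors had 8 of 22 (36.4%; *Foxd2*, *Foxf1a*, *Foxd1*, *Foxd4*), basic helix-loop-helix factors 11 of 31 (35.5%; *Neurod2*, *Olig1*, *Tal1*), and GATA, Zic and other zinc-finger factors 10 of 35 (28.6%; *Gata6*, *Egr3*, *Prdm16*, *Wt1*). All 39 HOX genes were at a WT SUZ12 peak and 6 at a kept region (15.4%; *Hoxa10*, *Hoxa9*, *Hoxb6*, *Hoxb7*, *Hoxb8*, *Hoxb3*), which were 3 regions only. Sox and T-box factors had 3 of 22 (13.6%; *Tbx1*, *Sox11*, *Sox17*) and genes of Wnt, FGF, BMP and Hedgehog signalling 8 of 58 (13.8%; *Fgfr3*, *Wnt7b*, *Fgf9*, *Bmp2*). None of the 8 Polycomb and acetylation regulators at WT SUZ12 peaks was kept. The study showed browser views of single loci, chosen with its own data in view. All 15 had a WT SUZ12 peak, and 7 were kept (*Fgfr3*, *Foxd4*, *Hoxa10*, *Lhx5*, *Hoxb7*, *Cdx2*, *Hmx3*).

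In RNA-seq, the genes of kept regions had low levels in all lines. Of the 236 genes, 197 were in the table of 18055 genes, and 85 passed the filter of a mean normalized count of at least 5. In normalized counts per kb of exon, the median level over the 197 genes was 0.458 in WT, 0.184 in *Ezh2* KO, 1.09 in dKO and 1.09 in Y726D ESCs. Over the 2670 genes of the other WT SUZ12 peaks it was 2.30, 1.88, 4.85 and 3.67, and over the 13601 genes at no WT SUZ12 peak 35.3, 36.7, 37.0 and 34.6. A read was found for 122 and 132 of the 197 genes in the WT libraries, 97 and 103 in *Ezh2* KO, 173 and 177 in dKO and 166 and 149 in Y726D. So the *Ezh2* KO libraries were below and the other mutants above both WT libraries, in libraries of 3604123 to 5181553 reads. Over all genes of the table, a read was found for 15660 and 16350 in WT, 15661 and 15978 in *Ezh2* KO, 17042 and 17104 in dKO and 16399 and 16103 in Y726D, so more genes were detected in dKO in general. All 197 genes together made up 0.107% to 0.123% of a WT library and 0.147% to 0.154% of a dKO library. Of the regions with the strongest dKO SUZ12 peaks, those at *Uncx*, *Tbx1*, *Sim2* and *Foxd2* were at genes close to silence. *Uncx* held 0 and 1.93 normalized counts in WT, 1.05 and 0.968 in *Ezh2* KO, 0.824 and 0 in dKO and 0.892 and 1.12 in Y726D, and *Tbx1*, *Sim2* and *Foxd2* had at most 2.47 in any library. *Mid1* was an exception, with 778 and 1093 in WT and 662 to 1082 in the others.

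In dKO ESCs, 10 genes of kept regions rose and none fell, out of the 85 tested (limma on log2 of the normalized count plus 1, adjusted p under 0.1 by Benjamini-Hochberg over all genes tested, and a change of at least 2-fold). This was 11.8%, where of all 13872 genes tested 3.63% rose and 0.389% fell. The genes of the other WT SUZ12 peaks had 12.6% higher, those of the top quintile 19.2% and genes at no WT SUZ12 peak 2.21%. The share at kept regions was therefore not above that of other PRC2-bound genes. Its distance from the share of all genes is not read as a result. Several of the risen genes, such as *Hoxa10*, *Hoxb7*, *Pitx1* and *Neurog1*, had few or no reads in WT. They passed the filter only through dKO or Y726D. The median log2 fold change was 0.77 at kept regions, 0.74 at the other WT peaks and 1.01 at the others of the top quintile. In Y726D ESCs 7 rose (8.24%; 1.66% of all genes tested) and 1 fell (1.18%; 1.06% of all), with a median log2 fold change of 0.57. Without the filter on low values, 14 of the 197 genes rose in dKO ESCs. The share of all genes was not counted under that setting, so no excess is read from this count. Both comparisons share the WT libraries, and p-values measure the spread between 2 libraries per line, which may be technical. With either dKO library left out, 0 of these genes were called in dKO and 4 in Y726D ESCs, where 5 were called without WT replicate 1. Genes that pass the filter through the lines where they are high had to differ, so these counts describe the 85 genes and not all 236.

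*Hoxa10* and *Hoxa9* had the largest log2 fold changes among the 85 genes in both lines. *Hoxa10* held 2.67 and 0 normalized counts in WT, 5.23 and 0 in *Ezh2* KO, 226 and 223 in dKO and 424 and 493 in Y726D. The dKO and Y726D libraries were far above all others, with log2 fold changes of 6.88 ± 0.83 (SE; adjusted p = 0.0085 by limma) and 7.90 ± 0.83 (adjusted p = 0.0057). Its neighbour *Hoxa9*, at the same region, held 0 and 2.89 in WT, 1.05 and 0 in *Ezh2* KO, 61.0 and 50.6 in dKO and 145 and 210 in Y726D (log2 fold changes 4.84 and 6.48). *Hoxb7* had no read in WT, and held 29.7 and 11.5 in dKO and 20.5 and 6.71 in Y726D, at least 12.5-fold and 8.58-fold higher against a floor of 3 reads over the WT libraries. All 3 were called in both mutants, *Hoxb7* in Y726D in only 8 of 17 alternative fits. Over all HOX genes, 11 of 20 tested rose in dKO and 10 in Y726D, so the rise was not confined to those at kept regions.

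*Pitx1*, a homeobox factor of the hindlimb and pituitary, had no read in WT or *Ezh2* KO and held 14.8 and 27.5 in dKO (at least 12.5-fold higher) and 3.57 and 13.4 in Y726D, where it was not called. *Neurog1*, which starts neurogenesis, held 0 and 0.963 in WT, 22.3 and 29.3 in dKO and 1.78 and 5.59 in Y726D (log2 fold change 4.24 in dKO, adjusted p = 0.030 by limma). Both were low in each control library and separated the dKO from the WT libraries. *Prox1*, a factor of lymphatic and lens cells, held 0 and 0.963 in WT, 8.24 and 13.3 in dKO and 19.6 and 7.83 in Y726D. It was called in both, with log2 fold changes of 3.04 and 3.27, but these calls held in only 9 of 16 alternative fits for dKO and 7 of 15 for Y726D. *Prdm16*, a factor of brown fat and stem cells, held 34.7 and 45.3 in WT, 94.1 and 64.8 in *Ezh2* KO, 191 and 156 in dKO and 129 and 112 in Y726D. Its log2 fold changes were 2.098 (adjusted p = 0.013 by limma) and 1.58 (adjusted p = 0.039), and the libraries of both mutants lay above those of WT. *Amn* (log2 fold changes 2.47 and 2.54) and *Kif26a* (2.41 and 2.44) also rose in both mutants, *Kif26a* in Y726D in only 8 of 18 alternative fits. *Tmem30b* was called in dKO (2.54) and not in Y726D (1.30), and these 2 lines did not differ at the threshold (adjusted p = 0.42 by limma). *Ltb*, a cytokine of lymphoid tissue, fell in Y726D by 2.62 on the log2 scale (adjusted p = 0.048 by limma), with 44.02 and 32.7 in WT, 16.5 and 11.5 in dKO and 3.57 and 7.83 in Y726D. The kept regions of *Kif26a* and *Ltb* were among the 14 that touched a peak of the HA control.

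**Figure D5:**
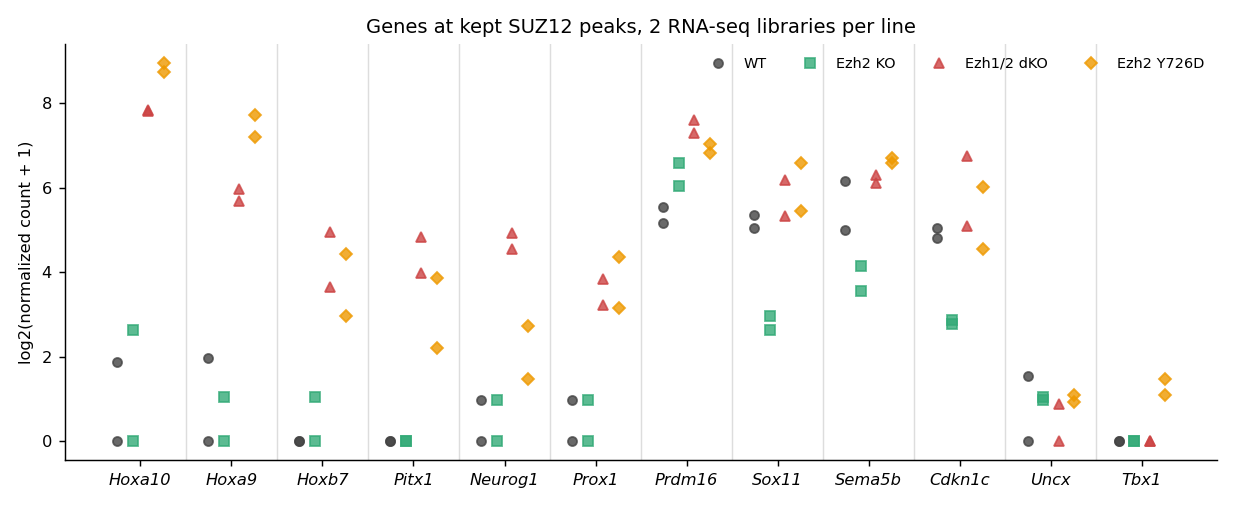
Levels of 12 genes at kept regions as log2 of the normalized count plus 1 (y axis), with 1 symbol per library and 2 libraries per line. *Hoxa10* and *Hoxa9* are high in dKO and Y726D only, *Sox11*, *Sema5b* and *Cdkn1c* are lowest in *Ezh2* KO, and *Uncx* and *Tbx1* stay near 0.

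Of the other loci of the study, *Fgfr3* held 40.02 and 56.8 in WT and 42.5 to 62.4 in the mutants, *Cdx2* ranged from 1.05 to 440 with libraries of the same line far apart (33.0 and 440 in Y726D), and *Lhx5*, *Hmx3* and *Foxd4* had at most 5.77 in any library. None of these was called. Of the 8 tested genes whose kept region had an H3K27ac peak in dKO ESCs, 5 were among the 10 that rose (*Hoxa10*, *Hoxa9*, *Hoxb7*, *Pitx1*, *Prdm16*), and the median log2 fold change was 3.20 with and 0.63 without such a peak. *Hoxa10* and *Hoxa9* share the same kept region. These 2 genes, *Hoxb7* and *Pitx1* had few or no reads in WT and *Ezh2* KO and passed the filter through dKO and Y726D, so they had to differ. A link between the mark and the RNA was not tested. In Y726D ESCs, 29 tested genes had an H3K27ac peak and 5 of the 7 risen genes were among them (medians 0.66 and 0.54).

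Counts by family follow the lists of factors named above, first for the tested genes at kept regions and then for the whole list, which holds genes without a kept region too. In dKO ESCs, all 3 tested HOX genes at kept regions rose, as did 1 of 5 other homeobox genes (*Pitx1*), 1 of 1 basic helix-loop-helix gene (*Neurog1*) and 1 of 2 zinc-finger genes (*Prdm16*). Only 3 of 4 HOX, 5 of 28 other homeobox and 1 of 8 basic helix-loop-helix genes with RNA-seq values here reached the filter. The HOX genes, *Pitx1* and *Neurog1* had few or no reads in WT and passed it through dKO or Y726D, so they had to differ. Genes that stayed low were left out, in the whole lists too. Neither the 1 tested Sox gene (*Sox11*) nor the 1 tested signalling gene (*Fgfr3*) was called, and none of the 8 forkhead genes reached the filter. In the whole lists, 6 of 35 other homeobox genes rose and 1 fell, and 0 of 6 forkhead, 4 of 14 Sox and T-box, 5 of 10 basic helix-loop-helix and 4 of 39 signalling genes rose, with 4 higher and 2 lower of 19 zinc-finger genes. The same lists in Y726D ESCs had 3, 0, 1, 2, 3 and 2 genes higher, and 1 zinc-finger gene lower. Of 35 Polycomb and acetylation regulators, none of them at a kept region, 3 rose and 2 fell in dKO and 2 rose and 1 fell in Y726D ESCs.

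In *Ezh2* KO ESCs, no gene of a kept region was called against WT (0 of 85, with 0.0937% of all genes tested higher and 0.310% lower). At an unadjusted p under 0.05 there were 18 of 85 in limma (21.2%, against 8.83% of all genes tested and 17.7% at the others of the top quintile). As alternatives, edgeR called 0 and DESeq2 called 2, both lower, and calls over all genes were not counted for these 2 fits. The median log2 fold change was −0.47, against −0.10 at the other WT peaks and −0.33 at the others of the top quintile. dKO was therefore also compared with *Ezh2* KO. Here 22 of 85 genes were higher (25.9%; 3.52% of all genes tested) and none lower (0.0577% of all), against 14.3% higher at the other WT peaks and 24.6% at the others of the top quintile. Among those higher were *Sox11*, a neural SOX factor, with 5.23 and 6.77 in *Ezh2* KO, 40.02 and 31.8 in WT and 71.7 and 39.1 in dKO, and *Cdkn1c*, a cell-cycle inhibitor, with 6.27 and 5.81, 32.02 and 26.96, and 106 and 32.9. Y726D against *Ezh2* KO had 17 of 85 higher (2.31% of all) and 1 lower (1.18%; 1.21% of all). Between Y726D and dKO, which differ in the presence of an inactive EZH2, none of the 85 was called in limma (0.187% of all genes tested were higher and 1.49% lower in Y726D), and 5 had an unadjusted p under 0.05 (5.88%, against 13.1% of all genes tested).

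Summed markers of trophectoderm, primitive endoderm and fibroblasts were higher in both dKO and both Y726D libraries than in either WT library. Summed over the list, 9 trophectoderm genes held 283 to 342 normalized counts in WT, 482 to 492 in *Ezh2* KO, 809 to 876 in dKO and 798 to 1224 in Y726D, and 10 primitive endoderm genes 1454 to 2044, 1525 to 1918, 2788 to 2816 and 2278 to 3414. The 4 two-cell genes held 311 to 696 in WT, 19.4 to 23.0 in *Ezh2* KO, 654 to 914 in dKO and 81.1 to 162 in Y726D, so they were below WT in Y726D. The 6 fibroblast genes held 45.3 to 58.7, 28.2 to 54.2, 150.02 to 209 and 126 to 187. Sums can rest on a few genes. Of the tested genes, 3 of 7 trophectoderm, 4 of 7 primitive endoderm and 1 of 2 fibroblast genes (*Thy1*) were called higher in dKO. In Y726D, 3, 2 and 1 were, and no gene of these 3 lists was called lower in either line. The 9 pluripotency genes stayed between 10378 and 12749 in the 8 libraries. Of the listed markers, 3 are themselves at kept regions, namely *Gata6* and *Sox17* of primitive endoderm and *Cdx2* of trophectoderm. In bulk RNA, more cells of a type and more RNA per cell cannot be told apart. Neither the presence of such cells nor their part in the gene counts above was tested.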

How the data were processed

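ChIP-seq and ATAC-seq were used as the peak lists deposited per sample. Per the labels and the methods, the authors used Bowtie for alignment to mm9, Picard to drop duplicate reads and MACS2 for peaks. Each deposited list gives positions, the −log10 p and the fold enrichment of each peak against its background, and every SUZ12, H3K27me3 and H3K27ac peak used had a −log10 p of at least 10. The H3K27me1, H3K27me2 and ATAC-seq lists hold broad regions of weaker p, and the HA lists positions only. For RNA-seq (SMART-seq2), the authors used TopHat, then HTSeq without strand for read counts, and DESeq2 size factors for scaling, so the deposited values are a signal per gene and library. Without strand, reads of a gene and of an antisense partner cannot be told apart. All values were whole multiples of 1 read (100%, tolerance 0.05), and libraries held 3604123 to 5181553 reads. The comparison tables of the authors (fold changes and p-values) were not used.

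WT SUZ12 peaks sharing at least 1 bp with a dKO SUZ12 peak were taken as members, with an overlap of 1 bp for all marks. Genes were linked by a protein-coding start site within 5 kb in the GENCODE annotation of mm9 (NCBIM37), whose genome gave the printed sequences, and 192 of the 197 matched genes were found by symbol and 5 by synonym. RNA-seq was fitted with limma 3.58.1 in R 4.3.3 with a trend (all 8 libraries, log2 of the normalized count plus 1, mean of at least 5). edgeR 4.0.16 and DESeq2 1.42.0 on the recovered reads, pseudocounts, filters, gene distances, thresholds, strictness of the lists and left-out libraries were tried as alternatives. The calculations were tested on simulated data. Python 3.11.15, pandas 2.3.3, numpy 2.4.6, scipy 1.17.1, pysam 0.24.0 and matplotlib 3.10.9 were used.

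Regions were named by rank of strength and width, by H3K27me3 in dKO or Y726D and by closeness to the limit of the rule. Genes were named as the 5 largest calls in each direction and as members of lists of gene families, loci shown by the study and cell type markers. Members and lists were chosen with earlier results of these data known. Values of some single genes and regions are not reported here.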

Additional observations from a re-analysis of the deposited data

Results flagged for a closer look

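The kept regions' genes differed between the dKO and *Ezh2* KO lines in a direct test of the 2 lines (limma, adjusted p under 0.1 and at least 2-fold), with 22 of 85 genes called, all higher in dKO (25.9%). Of all genes tested 3.52% were higher, and of the genes of the other top-quintile peaks 24.6%, so the share was close to that of other strongly bound genes. The log2 difference, dKO minus *Ezh2* KO, was 6.50 for *Hoxa10*, 5.31 for *Hoxa9*, 3.78 for *Hoxb7*, 4.41 for *Pitx1*, 4.24 for *Neurog1*, 3.04 for *Prox1* and 1.14 for *Prdm16*. It was 2.96 for *Sox11*, 2.35 for *Sema5b*, 3.10 for *Cdkn1c* and 3.79 for *Pou3f1*, 4 genes whose *Ezh2* KO libraries lay below both WT libraries and which were not called between dKO and WT. Between Y726D and *Ezh2* KO, 18 genes were called, 17 higher and 1 lower in Y726D. Of all genes tested 2.31% were higher and 1.21% lower, and 21.3% of the genes of the other top-quintile peaks were higher. The differences were 7.52 for *Hoxa10*, 6.94 for *Hoxa9*, 3.17 for *Hoxb7*, 3.02 for *Pitx1*, 3.27 for *Prox1*, 3.22 for *Sox11*, 2.79 for *Sema5b*, 2.46 for *Cdkn1c* and 3.75 for *Pou3f1*, and −2.04 for *Ltb*. Both comparisons share the *Ezh2* KO libraries.

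Outside the kept regions, 10 of the 317 dKO SUZ12 peaks lay on no WT SUZ12 peak. Of these, 7 were on chromosome X between 166412820 and 166445157, beside the kept regions of *Mid1* and *Gm17379*, and 3 elsewhere. The −log10 p ranged from 10.8 to 14.1 for the 7 on X and was 11.3, 10.5 and 10.8 for the 3 others.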

How the results depend on the processing

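Of 530 recalculations with another choice, 405 were rated the same as the main result, 48 moved, 72 weaker and 5 stronger. The same meant a share within the counting interval, a count of regions or calls within a fixed ratio of the main count, or a named gene still called. A turned direction could be seen for named genes only, and none of them turned. The number of kept regions was 263, 191, 251, 228 and 255 under a stricter overlap, a dKO −log10 p of at least 11, without HA control overlaps, with a start site within 5 kb, and without the X and chromosome 17 regions (an alternative chosen after seeing the data), and 8 at a −log10 p of at least 20 in both lists. In dKO ESCs, most of these peaks lay close to the listing threshold.

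Without the HA control overlaps, H3K27me3 was at 99.2% in WT, 1.59% in dKO and 0.797% in Y726D, H3K27ac at 0.797% in *Ezh2* KO and in R685C, HA control at 0%, and WT H3K27me1 on 0.0737% of bases. Without the X and chromosome 17 regions these were 99.2%, 1.57%, 0%, 0.392%, 0%, 2.35% and 0%, and WT H3K27me2 0.114%. With a start site within 5 kb, H3K27me3 in *Ezh2* KO was 100%, SUZ12 93.9% in *Ezh2* KO and 97.8% in R685C, and at the dKO −log10 p of 11 H3K27me3 in R685C was 100%. With mark peaks of a −log10 p of at least 20, the shares were 80.8% for WT H3K27me3, 72.8%, 72.5% and 85.7% for SUZ12 in *Ezh2* KO, Y726D and R685C, and 0.377%, 0.755% and 4.15% for H3K27ac in *Ezh2* KO, dKO and Y726D.

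With broad regions of a p of at most 0.01, H3K27me1 covered 0.819%, 2.92% and 3.10% of kept bases in *Ezh2* KO, dKO and Y726D, H3K27me2 0.196% in WT, 1.07% in dKO and 1.54% in Y726D, and ATAC-seq 13.4%, 15.6%, 9.59% and 13.2% in the 4 lines. With the blocks inside the broad regions alone, H3K27me1 covered 0.0596%, 1.30% and 1.56%, H3K27me2 0.0547% in WT, 54.7% in *Ezh2* KO, 0.0478% in dKO and 0.803% in Y726D, and ATAC-seq 0.870%, 0.934%, 0.665% and 0.958%.

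For RNA-seq, dKO calls (10) were 6 with a mean of at least 20, and 0 to 11 with a library left out, where a lone library is assumed to vary like the others. Y726D calls (8) were 5 at an adjusted p under 0.05, 2 with only the libraries compared, and 4 to 9 with a library left out. *Ezh2* KO calls (0) were 2 in DESeq2 and 0 to 2 with a library left out. The cause of these changes was not tested. For the alternatives, calls were counted at genes of kept regions only, without the share of all genes. With the replicate number as a block, the calls were 0, 9 and 7 in *Ezh2* KO, dKO and Y726D. Deviations of same-numbered libraries correlated between −0.41 and 0.29, so the numbers were not used as pairs, and with the WT numbers crossed, chosen after seeing the data, the calls were 4, 14 and 13.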
